A study of Rattus norvegicus with 12 samples.

Results

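The comparison set the Low Pain (LP) sub-line of Sprague Dawley rats against the High Pain (HP) sub-line after spinal nerve ligation (SNL), using the 3 LP SNL arrays and the 3 HP SNL arrays, 6 of the 12 arrays in the series. The 6 arrays were chosen by their titles and not by any measured value. All animals were adult males, and all 6 arrays came from ganglia at L4/L5 whose spinal nerves had been tied 3 days earlier. The 6 remaining arrays, 3 LP sham and 3 HP sham, came from animals of the same sub-lines after an operation that left the nerve intact, and they served as the line comparison without injury. The labels state neither how many animals gave each array nor whether replicates came from different animals. The p-values therefore rest on the array-to-array spread alone, part or all of which could be technical.

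Dorsal root ganglia hold the cell bodies of the sensory neurons of the body, each wrapped in satellite glia, together with Schwann cells, vessels and resident macrophages. Tying a spinal nerve cuts these neurons off from their targets. Injured neurons then lower many of the channels and peptides of their former state and switch on growth and stress genes, while macrophages gather in the ganglion. Rats of different genetic stocks differ in how much pain behaviour follows, and the comparison asked how the injured ganglia of the High Pain and Low Pain sub-lines differed in their transcripts.

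Affymetrix signals were available for 15866 probe sets outside the array's controls, and 10411 genes had at least 1 probe set with a single gene name. A gene is described by its brightest probe set, judged by the mean of all 12 arrays, unless another is named; called genes are given by the probe set that passed. Signals are on a linear scale, and differences are LP minus HP on the scale of log2(signal + 1), given ± SE from limma. That scale understates differences of dim probe sets. Median signals lay between 292.7 and 303.4 on the HP SNL arrays and between 299.2 and 313.2 on the LP SNL arrays. Correlations of log2 signals were 0.9549 to 0.9556 within HP SNL, 0.9584 to 0.9646 within LP SNL and 0.9495 to 0.9605 between them, so the lines overlapped in overall likeness. The ratio of the 3' to the 5' beta-actin control probe sets, a sign of RNA integrity, was 1.237, 1.342 and 1.118 in HP SNL and 1.125, 1.113 and 1.124 in LP SNL (exact permutation test of the log2 ratio, two-sided, p = 0.3, where 0.1 is the smallest possible). General neuron markers were present at a median brightness percentile of 98.6 among all genes, and markers of skeletal muscle and of central nervous system glia lay at 19.3 and 17.6.

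In injured ganglia the antioxidant enzyme gene Gpx2 had the smallest adjusted p and was lower in LP. The calls also included Scaf1 and the nociceptor sodium channel gene Scn10a, lower in LP, Fam111a, Ptf1a and Sgcb, higher in LP, and 2 genes of the major histocompatibility complex (MHC) in opposite directions. By limma, 23 probe sets passed an adjusted p of 0.05, which is 0.145% of those tested, 15 of them higher in LP SNL (0.0945%) and 8 lower (0.0504%). Of these, 16 carried a single gene name, and 13 were the brightest probe set of their gene, 0.125% of genes. At an unadjusted p under 0.05 there were 1684 probe sets, or 10.6%. After sham surgery 7 probe sets passed (0.0441%), and 1500 had an unadjusted p under 0.05 (9.45%). Replicate spread was widest for dim probe sets, with a median residual SD of 0.613 on the log2 scale in the dimmest 25% and 0.135 in the brightest 25%. The number of calls moved with the samples: leaving out any 1 of the 3 LP SNL arrays left 1, 2 and 1 calls, without HP SNL replicate 2 there were 5, and without HP sham replicates 1, 2 and 3 there were 9, 3 and 12. Gpx2 was the one named gene still past the threshold without HP SNL replicate 2, HP sham replicate 2 or any LP SNL array. Median centring of each array gave 31 calls, 15 higher and 16 lower.

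**Figure D1:**
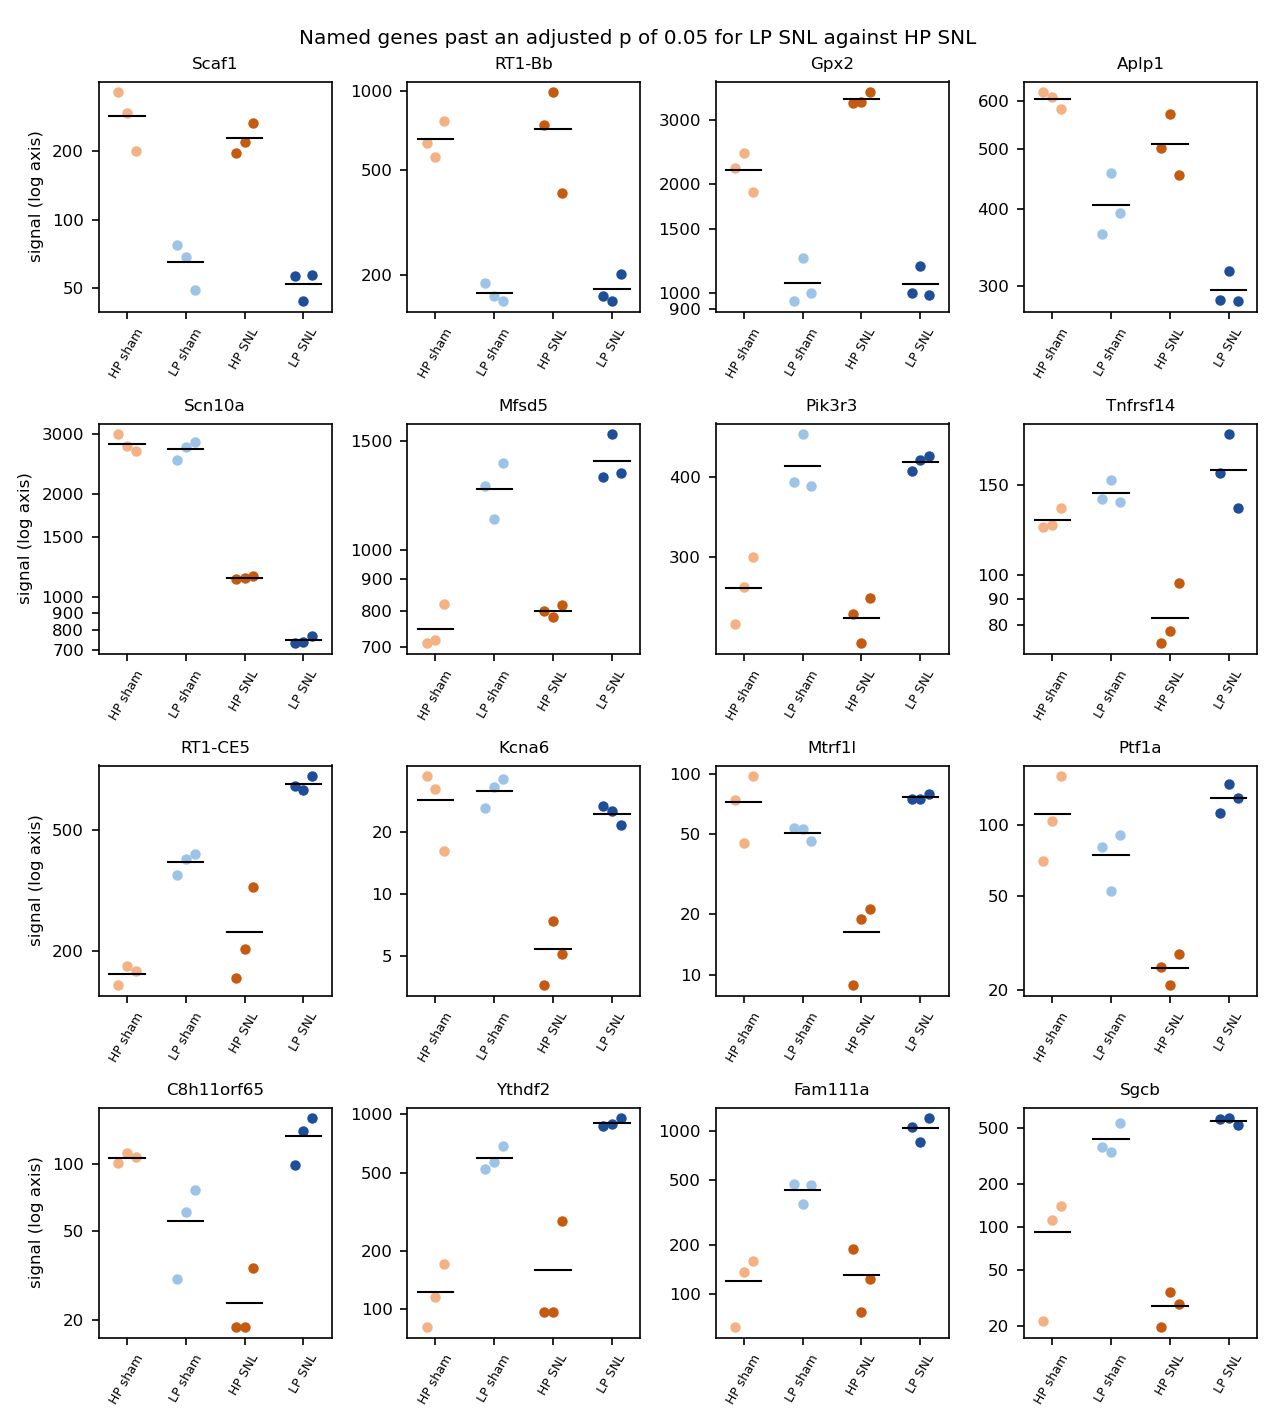
Signal (log axis) of the 16 named genes past an adjusted p of 0.05 for LP SNL against HP SNL, 1 point per array and a bar for the mean of the 3 arrays of a group, ordered from the lowest log2 difference to the highest. Gpx2, Scaf1 and RT1-Bb separate both LP groups from both HP groups, whereas for Ptf1a, Mtrf1l, Kcna6 and Tnfrsf14 the 3 HP SNL arrays lie below the other 9.

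Gpx2 encodes a glutathione peroxidase that reduces hydrogen peroxide and lipid peroxides. Its signal was 3337.4, 3350.8 and 3576.3 in HP SNL and 997.6, 1186.3 and 987.6 in LP SNL. The HP SNL arrays were the highest of all 12, and the LP SNL arrays lay in the range of LP sham. The log2 difference was -1.70 ± 0.14 (limma adjusted p = 0.00382), or 3.24-fold, and no array of one group approached the other. HP sham arrays stood at 2209.0, 2428.6 and 1895.3 and LP sham arrays at 948.0, 1247.5 and 997.7, a log2 difference of -1.04 ± 0.14 (limma adjusted p = 0.0472). The wider gap after ligation had an interaction of -0.66 ± 0.19 (limma adjusted p = 0.918), so the data did not show that the line difference changed with injury. Gpx2 passed in all 24 alternative settings tried, with adjusted p up to 0.0448 and log2 differences from -1.78 to -1.64.

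The promoter of Gpx2 is shown because a known control element of antioxidant genes, the antioxidant response element bound by NRF2, can be looked for in it. The window is the 250 bases before the RefSeq gene start in the rat assembly GRCr8, chr6:101230034-101230283 on the minus strand, upstream of the gene. Capitals mark the letters of the element core, TGACNNNGC, searched on both strands.
Gpx2: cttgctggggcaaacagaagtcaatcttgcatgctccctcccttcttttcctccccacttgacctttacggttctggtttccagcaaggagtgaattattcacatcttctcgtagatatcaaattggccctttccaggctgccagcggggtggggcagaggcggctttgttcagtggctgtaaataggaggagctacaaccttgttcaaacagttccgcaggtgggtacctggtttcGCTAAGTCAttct
The core occurred 1 time, on the reverse strand, with its nearest base 5 bases before the start. Of 33469 rat promoter windows, 10.1% held such a match, and the match describes letters only. The window also held the letters of a CCAAT box on the reverse strand, which did not overlap the core.

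Of 54 measured antioxidant and detoxification enzymes, 1 passed the adjusted threshold, which was Gpx2, where 0.125% of all genes passed. In 11 of the 54 all 3 LP SNL arrays were below all 3 HP SNL arrays, and in 4 they were above. Over all genes 8.33% were below and 9.10% above. The list is bright, with a median at the 75.6th percentile, and bright genes lay below more often. With all genes split into 4 groups by brightness, the brightest group had 16.7% below and 6.92% above. The count below is therefore not set apart from brightness. The list's median log2 difference was -0.03 after SNL and -0.03 after sham, against 0.03 and 0.01 over all genes, and it was 0.04 after SNL without HP SNL replicate 2. Gstm1, a glutathione transferase, had signals of 847.5, 820.7 and 823.1 in HP SNL and 453.6, 591.3 and 536.8 in LP SNL (-0.66 ± 0.14, limma adjusted p = 0.14). Gpx1, the main cytosolic glutathione peroxidase, stood at 3197.0, 3354.8 and 2937.0 against 2415.3, 1755.6 and 2398.1 (-0.54 ± 0.14, limma adjusted p = 0.224). Both genes had groups that did not overlap after sham either, with sham differences of -0.38 and -0.58. Gpx4, which protects membranes from lipid peroxidation, Prdx2, a peroxiredoxin, Gstp1, another glutathione transferase, and the metallothionein Mt2A had log2 differences of -0.38, -0.29, -0.30 and -0.73, all with LP SNL arrays below HP SNL arrays and none past the threshold. The genes that lay the other way were Sod3, Gsta4, Cbr1 and Maob, at 0.15 to 0.32.

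Nociceptors, the neurons that detect damaging stimuli, gave the clearest neuronal difference. Scn10a encodes Nav1.8, the sodium channel that carries most of the action potential current in these cells. Its signal was 1132.0, 1135.3 and 1153.4 in HP SNL and 733.1, 740.2 and 769.6 in LP SNL. Each group was tight, and all 6 injured arrays lay below the 6 sham arrays, which ran from 2530.5 to 3007.4. The log2 difference was -0.61 ± 0.09 (limma adjusted p = 0.0404), or 1.52-fold, whereas after sham it was -0.06 ± 0.09 with overlapping groups. The interaction was -0.55 ± 0.12 (limma adjusted p = 0.646, unadjusted p = 0.00109). Scn10a passed in 10 of 24 alternatives (adjusted p from 0.00426 to 0.183), with a log2 difference between -0.66 and -0.59 in all of them. Of the 12 fits that each left out 1 array, only the fit without LP sham replicate 1 kept the call, and the others gave adjusted p from 0.0541 to 0.138.

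Scn11a lies beside Scn10a on chromosome 8 and encodes Nav1.9, a persistent sodium current that sets excitability in nociceptors. Signals of 731.5, 502.2 and 458.9 in HP SNL stood against 253.4, 268.9 and 259.6 in LP SNL, a log2 difference of -1.08 ± 0.21 that did not pass (limma adjusted p = 0.105). After sham the difference was 0.26 ± 0.21, with LP sham replicate 3 at 3029.9 far above the other 5 sham arrays. Calca, which encodes calcitonin gene-related peptide, a vasodilator peptide of nociceptors, stood at 5196.8, 4641.5 and 4698.1 against 3829.6, 3357.7 and 3332.7 (-0.47 ± 0.10, limma adjusted p = 0.115). A second bright probe set of Calca gave -0.50 ± 0.12, and a dim one gave -0.27 ± 0.35.

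As a list, nociceptor markers had 24 measured genes, of which 1 passed (Scn10a), where 0.125% of all genes did. In 8 of the 24 every LP SNL array lay below every HP SNL array and in 0 above, and 19 of 24 had a log2 difference below 0. Over all genes 8.33% were below and 9.10% above. The list is bright, with a median at the 79th percentile, and in the brightest 25% of all genes 16.7% were below and 6.92% above. The 8 were Scn10a, Scn11a, Calca, Calcb, the acid-sensing channel Asic3, the ATP-gated channel P2rx3, the phospholipase Plcb3 and the sodium pump subunit Fxyd2. Asic3 and Calca were also lower in LP without overlap after sham, at -0.46 and -0.16. Plcb3 was higher in LP without overlap after sham, at 0.21. The other members of the 8 had overlapping sham groups. The list's median difference was -0.21 after SNL and 0.03 after sham. The SNL median stayed between -0.31 and -0.12 over the alternatives, with the same 0 above and 8 below after quantile normalization. After sham 6 of the 24 were above and 3 below without overlap, where 8.19% and 7.40% of all genes were. Summed over the list, signals ran from 19809 to 21080 in HP SNL and from 15819 to 17144 in LP SNL, while the sham groups overlapped, at 31522 to 32591 in HP and 30622 to 32856 in LP. In bulk tissue, fewer nociceptors and less RNA per nociceptor cannot be told apart. Of 13 general neuron markers 1 was below and 0 above, with a median of -0.12 after SNL and -0.08 after sham, the 1 being the intermediate filament gene Prph, and their summed signal overlapped (47720 to 53993 against 43321 to 49114). Large-fibre neuron markers had a median of 0.13, with 1 of 14 above (Calb1, a calcium buffer) and 0 below, and their summed signals overlapped too (29604 to 31666 against 27867 to 32011).

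**Figure D2:**
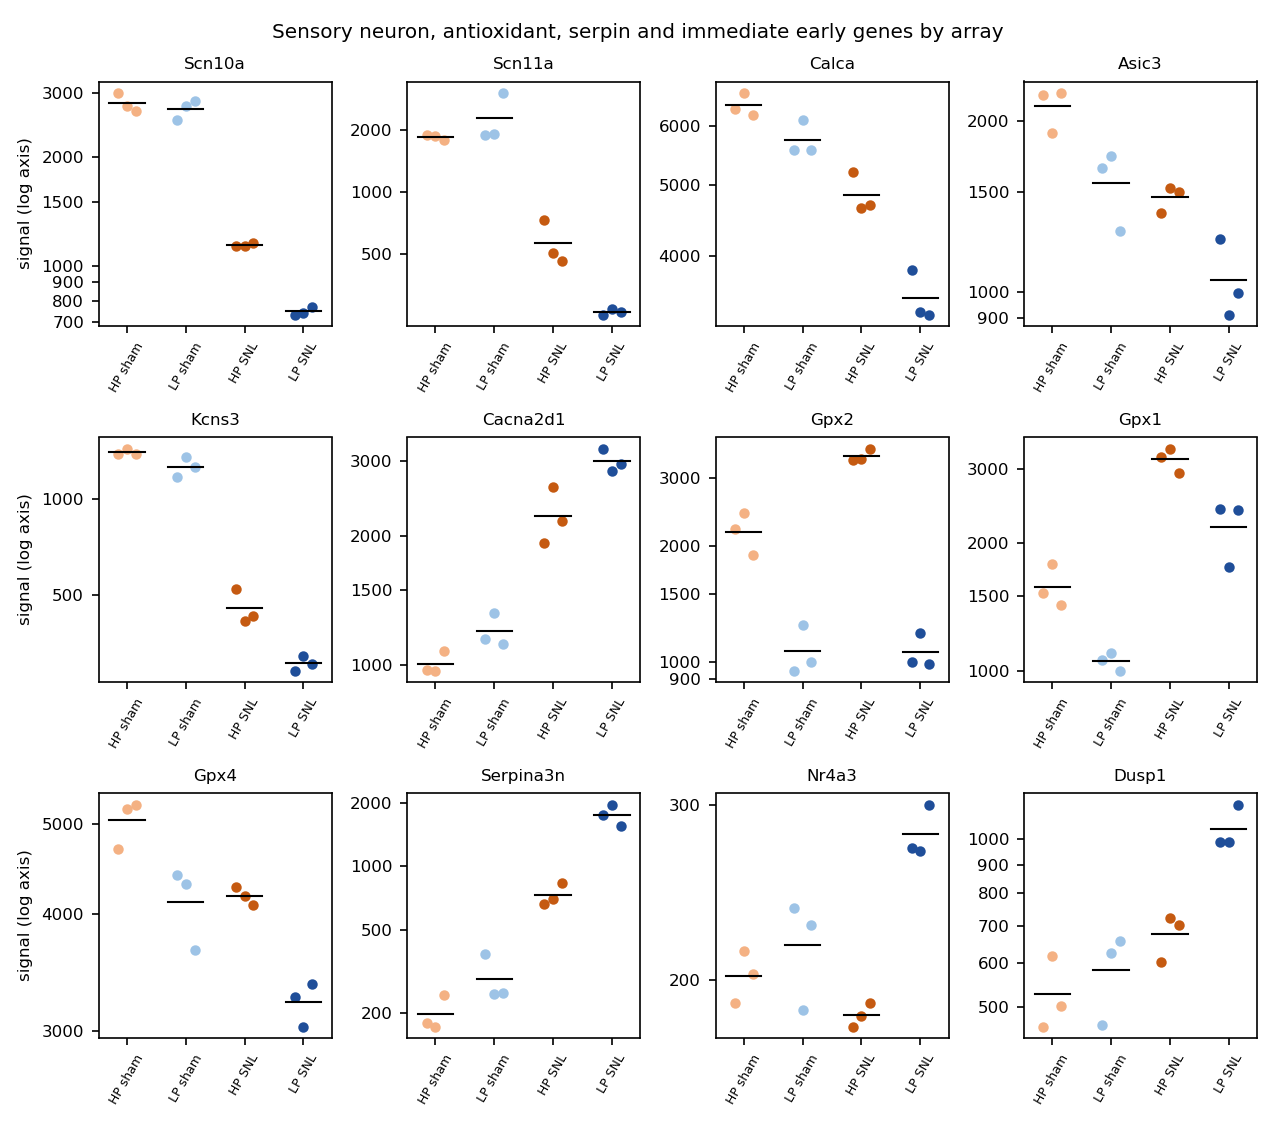
Signal (log axis) by array of 12 genes of sensory neurons, antioxidant defence, protease inhibition and the immediate early response, 1 point per array and a bar for each group's mean of 3 arrays. Scn10a, Scn11a, Calca and Kcns3 are lowest in the 3 LP SNL arrays, Gpx2 is highest in the 3 HP SNL arrays, and Serpina3n, Nr4a3 and Dusp1 are highest in the 3 LP SNL arrays.

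Other channels showed differences in both directions. Without overlap, 9.10% of all genes were above and 8.33% below, and 0.125% of all genes passed the threshold. Of 33 sodium, calcium and HCN channel genes, 7 were below and 4 above without overlap, and only Scn10a passed the threshold (median -0.01, against -0.02 after sham). Cacnb3, a calcium channel beta subunit that aids trafficking to the membrane, had signals of 1086.6, 1287.2 and 1016.6 in HP SNL and 771.0, 607.8 and 756.2 in LP SNL (-0.67 ± 0.13, limma adjusted p = 0.111), and -0.60 after sham. The alpha-2-delta-1 subunit gene Cacna2d1, whose product binds gabapentin, lay the other way at 0.43 ± 0.13 (limma adjusted p = 0.285). Its sham difference was 0.25, also without overlap. Among 34 voltage-gated potassium channel genes, 5 were above and 4 below; after quantile normalization the counts were 1 and 7, so no direction holds for the list. Kcns3, a modulatory subunit, stood at 524.2, 415.2 and 431.0 in HP SNL and 291.0, 322.5 and 306.0 in LP SNL (-0.57 ± 0.11, limma adjusted p = 0.104). For Kcns3 the sham difference was -0.16, and the sham groups did not overlap either. Kcna1, the axonal channel Kv1.1, stood at 1337.6, 1040.8 and 1217.7 against 2128.5, 1783.2 and 1963.9 (0.71 ± 0.18, limma adjusted p = 0.218), with the same difference of 0.71 after sham. Its neighbour on chromosome 4, Kcna6 (Kv1.6), passed through a very dim probe set: 3.6, 7.4 and 5.1 in HP SNL and 26.6, 25.3 and 21.5 in LP SNL (2.04 ± 0.30, limma adjusted p = 0.0437). These HP SNL values lie below the 5th percentile of their arrays (13.7 to 15.8), and the brighter probe set of Kcna6 gave 0.51 ± 0.37, so the size of this difference is uncertain.

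Further receptor and signalling lists had no gene past the threshold. Among all genes 0.125% passed, and 9.10% were above and 8.33% below without overlap. GABA and glutamate receptors had 4 of 34 above and 4 below (median -0.04), opioid, cannabinoid, serotonin, adrenergic and peptide receptors 5 of 48 above and 2 below (0.11), and other potassium channels 4 of 31 above and 1 below (0.10). The opioid to peptide receptor list and the other potassium channels were dim, with medians at the 26.2nd and 26.3rd percentile. After quantile normalization the former had 0 above and 2 below and the latter 1 above and 1 below. The peptide and vesicle lists were also mixed, with neuropeptides at 2 of 26 above and 3 below (-0.07) and synaptic vesicle genes at 3 of 30 above and 2 below (-0.02). Of the neurotrophic factors and receptors 5 of 30 were above and 0 below, with a median of 0.07 after SNL and 0.12 after sham. Quantile normalization left 3 above and 0 below after SNL. In the sham groups 8 of the 30 were above and 2 below, where 8.19% and 7.40% of all genes were. Nerve injury and regeneration genes, the programme that axotomy switches on, had 6 of 37 above and 2 below with a median of 0.08, and their summed signals were alike, at 53887 to 56416 in HP SNL and 53368 to 56633 in LP SNL. In this list Adcyap1, which encodes the peptide PACAP, had a log2 difference of 0.53 ± 0.21 (limma adjusted p = 0.414) and the annexin Anxa1 had -0.41 ± 0.15 (limma adjusted p = 0.381).

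The antigen presentation list covered MHC class I genes, whose products show peptides from inside the cell, class II genes, whose products show peptides to helper T cells, and their loading machinery. Of 26 measured genes 1 passed higher (RT1-CE5) and 1 lower (RT1-Bb), and without overlap 4 were above and 11 below, the same counts as after quantile normalization. Over all genes 0.125% passed, 9.10% were above and 8.33% below. After sham 2 of the 26 were above and 8 below, where 8.19% and 7.40% of all genes were. The list's median was -0.07 after SNL and -0.10 after sham. RT1-Bb, a class II beta chain, stood at 740.4, 993.3 and 410.2 in HP SNL and 166.4, 158.9 and 201.4 in LP SNL (-1.94 ± 0.27, limma adjusted p = 0.0404), and its sham difference was -1.93 ± 0.27. Its other probe set went the opposite way, at 3.18 ± 1.00 (limma adjusted p = 0.323), and the mean of both gave 0.62, so the direction for RT1-Bb depends on the probe set. The class I gene RT1-CE5 stood at 163.2, 202.7 and 325.2 against 696.9, 674.5 and 750.6 (1.67 ± 0.21, limma adjusted p = 0.025; sham 1.21 ± 0.21), and its other 4 probe sets all lay above 0, from 0.52 to 4.60. HP SNL replicate 3 stood apart from its 2 partners here: the probe set of RT1-Bb with the positive difference read 27.6, 13.6 and 440.7 in HP SNL, and the RT1-CE5 probe set with the largest difference read 6.6, 6.5 and 67.8. Without that array the called probe sets gave -2.29 ± 0.19 for RT1-Bb and 1.95 ± 0.13 for RT1-CE5.

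**Figure D3:**
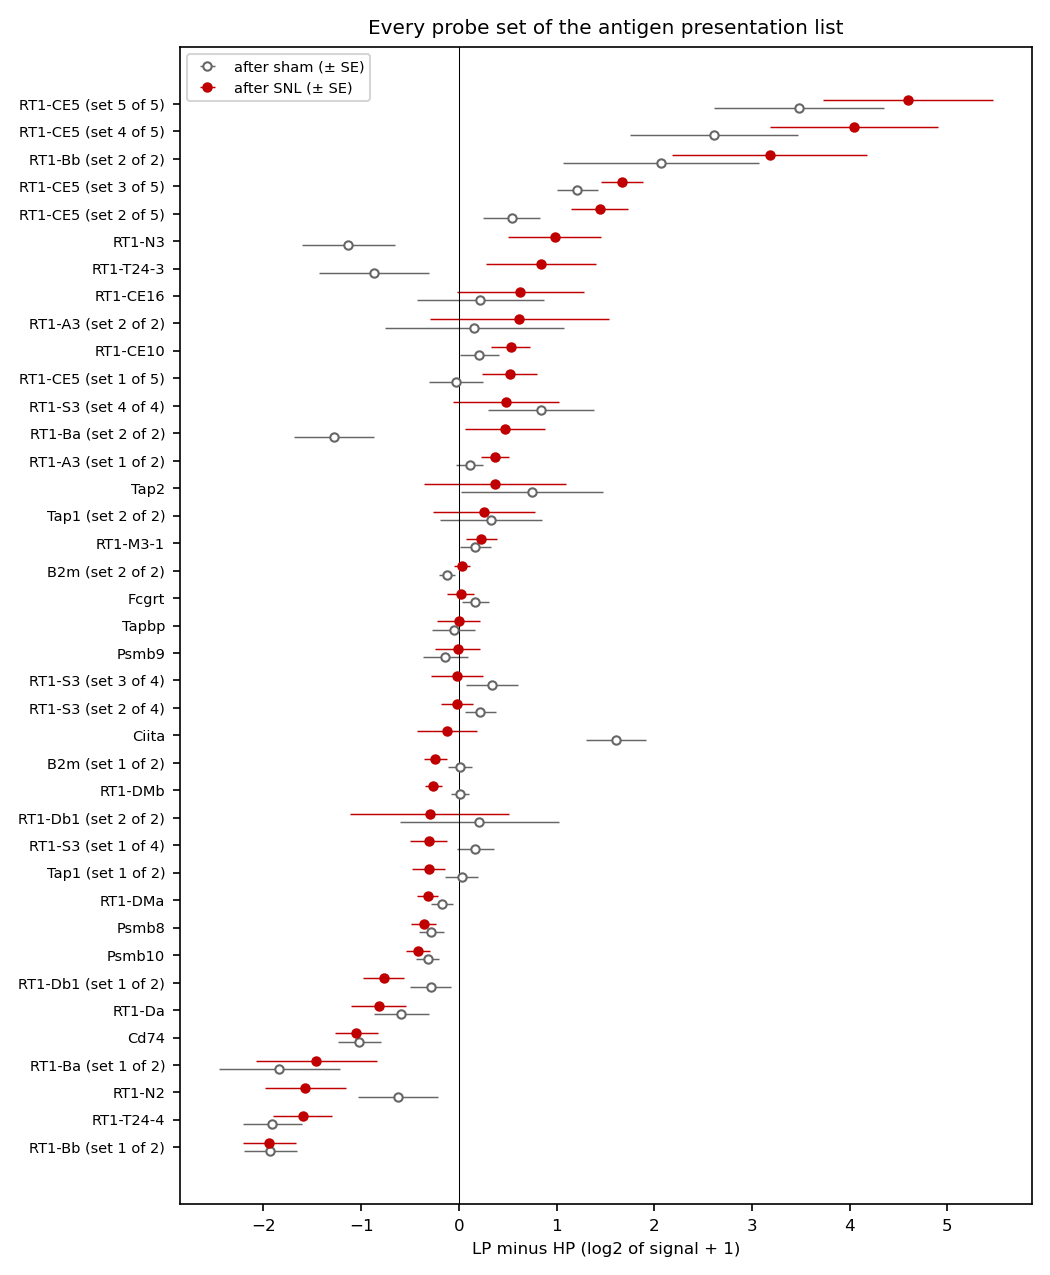
LP minus HP difference (log2 of signal + 1, bars ± SE) of all 39 probe sets of the antigen presentation list, after SNL (filled) and after sham (open), sorted by the SNL value. All 5 RT1-CE5 probe sets lie above 0 after SNL, whereas the 2 RT1-Bb probe sets lie on opposite sides of 0, at -1.94 and 3.18.

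Most other class II genes had differences below 0. Cd74, the invariant chain that guides class II molecules, had signals of 2587.1, 3750.4 and 3050.9 in HP SNL and 1447.1, 1433.0 and 1607.6 in LP SNL (-1.05 ± 0.22, limma adjusted p = 0.121), and -1.02 after sham. RT1-Da, RT1-Db1, RT1-DMa and RT1-DMb, which encode class II chains and the peptide loader, had differences of -0.82, -0.77, -0.32 and -0.26, each with every LP SNL array below every HP SNL array and none past the threshold. The exception, the class II alpha chain RT1-Ba, had 0.47 ± 0.41 with overlapping groups, and -1.28 after sham. Its dimmer probe set had -1.46 ± 0.62 (limma adjusted p = 0.448), with every LP SNL array below every HP SNL array, and -1.84 after sham. The direction for RT1-Ba after SNL therefore depends on the probe set. RT1-T24-4, a class I gene, had 1001.5, 1101.9 and 1010.4 against 258.3, 306.6 and 506.0 (-1.60 ± 0.30, limma adjusted p = 0.101; sham -1.91). Of the 8 genes of this list with several probe sets, 5 had probe sets of opposite sign. MHC genes form families of near-identical copies, so which copy a probe set reports is uncertain. Among the 10 array genes nearest RT1-Bb on chromosome 20, 5 each side, 5 had an unadjusted p under 0.05 (RT1-Da, RT1-Db1, RT1-DMb, Psmb8 and Gpsm3), where 5.35% and 4.78% of all genes were at such a p in the higher and the lower direction.

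Class II promoters are known for a conserved upstream region that includes an inverted CCAAT box, and the RT1-Bb window is shown for it. It covers the 250 bases before the RefSeq gene start in GRCr8, chr20:4604119-4604368 on the minus strand, upstream of the gene, with matches to CCAAT on either strand in capitals.
RT1-Bb: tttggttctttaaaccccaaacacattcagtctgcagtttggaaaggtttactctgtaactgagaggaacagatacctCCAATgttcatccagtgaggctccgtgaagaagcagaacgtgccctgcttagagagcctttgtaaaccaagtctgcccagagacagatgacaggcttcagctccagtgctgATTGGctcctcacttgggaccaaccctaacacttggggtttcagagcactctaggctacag
There were 2 matches, 57 and 168 bases before the start, and the nearer one is inverted. Of the 33469 windows, 34% held at least 1. No other motif searched (the antioxidant element core, a TATA box with the letters TATAAA, and the interferon-type site TTCNNNGAA) matched in this window.

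Macrophages carry class II molecules, and their markers are given beside these values. Of 26 macrophage markers 3 were above and 4 below, with a median of -0.10 after SNL (0.02 without HP SNL replicate 2) and -0.13 after sham, and their summed signals overlapped at 25591 to 29529 in HP SNL and 23224 to 27560 in LP SNL. Cd68, C1qc, Fcgr2b and Lgals3 were below and Itgam, Cx3cr1 and Ccr2 above. Their part in the class II values was not tested. Other immune lists held no gene past the threshold. Without overlap, 9.10% of all genes were above and 8.33% below. T cell and NK cell markers had 3 of 19 above and 0 below (median 0.08), the interferon response 4 of 23 above and 1 below (0.05), complement 1 of 22 above and 5 below (-0.08), and cytokines, chemokines and their receptors 5 of 60 above and 2 below (0.10). After quantile normalization the T cell and NK cell list had 1 above and 1 below, and the cytokine list 5 above and 4 below. Mast cell markers had 0 of 12 either way (0.08), neutrophil markers 1 of 8 each way (-0.08), and B cell and plasma cell markers 0 of 2 (-0.41). The dim inflammatory cytokine gene Tnf stood at 53.3, 56.7 and 29.9 against 91.1, 100.2 and 107.5 (1.13 ± 0.23, limma adjusted p = 0.111), and the monocyte chemokine receptor gene Ccr2 at 72.8, 75.5 and 88.8 against 117.2, 143.1 and 136.7 (0.74 ± 0.17, limma adjusted p = 0.169).

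Beyond these families, a group of called genes separated the lines in both surgeries. Of the 23 called probe sets, 9 had all 6 LP arrays above all 6 HP arrays and 6 had them below, where 0.643% and 0.649% of all probe sets did so. The calls were selected for a line difference on the SNL arrays, which are part of this pattern. Setting their counts against these shares is therefore not a test. Scaf1, a partner of RNA polymerase in pre-mRNA processing, stood at 196.6, 220.0 and 265.2 in HP SNL and 56.4, 43.9 and 56.9 in LP SNL (-2.09 ± 0.24, limma adjusted p = 0.0232), with -2.10 after sham (limma adjusted p = 0.0295). Fam111a, a nuclear protease that guards DNA replication, stood at 188.9, 77.3 and 123.8 against 1059.5, 863.2 and 1208.5 (3.07 ± 0.38, limma adjusted p = 0.025; sham 1.94 ± 0.38). Sgcb, a sarcoglycan of the dystrophin complex, had the largest called difference: 19.7, 34.8 and 28.7 against 581.4, 586.6 and 520.3 (4.33 ± 0.57, limma adjusted p = 0.0334; sham 2.51 ± 0.57). In all 3 genes the LP SNL and LP sham arrays formed one side and the HP arrays the other. Each of the 3 was measured by 1 probe set, so no second one checks the size of the difference. Whether sequence variants of the lines under the probes affect these signals was not tested.

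The same split was seen for 3 genes with smaller or less certain differences. Mfsd5, a membrane transporter, stood at 798.9, 781.3 and 816.6 against 1310.9, 1537.3 and 1329.6 (0.80 ± 0.11, limma adjusted p = 0.0404; sham 0.74). Pik3r3, a regulatory subunit of phosphoinositide 3-kinase, stood at 244.1, 219.6 and 258.3 against 408.7, 425.7 and 430.7 (0.81 ± 0.12, limma adjusted p = 0.0437; sham 0.63). Ythdf2, a reader of methylated adenosine that speeds mRNA decay, stood at 96.6, 96.7 and 283.0 against 865.9, 886.1 and 953.5 (2.69 ± 0.39, limma adjusted p = 0.0437; sham 2.32), but its brighter probe set gave 0.42 ± 0.23. Aplp1, a neuronal relative of the amyloid precursor, was lower, at 503.3, 570.2 and 454.9 against 285.0, 317.7 and 283.5 (-0.78 ± 0.12, limma adjusted p = 0.0459; sham -0.58). Another 7 called probe sets had no single gene name in the tables used here, with differences from -0.79 to 2.06, and 6 of them also split the lines in both surgeries. Each named gene of this paragraph and the one before it lost its call in some alternative settings, with Scaf1 passing most often among them (19 of 24) and Pik3r3 least (7 of 24).

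A second group of called probe sets had low HP SNL arrays. For 5 of the 23 the 3 HP SNL arrays lay below all the other 9 arrays, where 1.406% of all probe sets did so, and 4 of the 5 were named. Low HP SNL arrays also favour a call, so this count against that share is not a test either. Ptf1a, a transcription factor of inhibitory neurons and pancreas, stood between 21.0 and 28.4 in HP SNL (mean 24.8 ± 3.7, SD, n = 3) and at 112.5, 149.3 and 129.5 in LP SNL (2.35 ± 0.29, limma adjusted p = 0.025), with 52.7 to 160.9 over the sham arrays. Tnfrsf14, a receptor that tunes lymphocyte activation, stood at 73.8, 77.9 and 96.5 against 158.3, 188.5 and 135.3 (0.95 ± 0.14, limma adjusted p = 0.0437). Mtrf1l, a mitochondrial release factor, stood at 8.9, 18.9 and 21.3 against 74.7, 74.8 and 79.4 (2.24 ± 0.32, limma adjusted p = 0.0404), and its brighter probe set gave 0.13 ± 0.40; the fourth was the dim Kcna6 probe set. C8h11orf65, an uncharacterised gene, was close to this pattern, with 18.6, 18.5 and 34.1 against 98.5, 140.2 and 160.2 (2.47 ± 0.34, limma adjusted p = 0.0404) and a sham difference of -1.02. All these signals were low: the HP SNL means of these named genes lay at the 19.8th percentile of their arrays or lower.

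**Figure D4:**
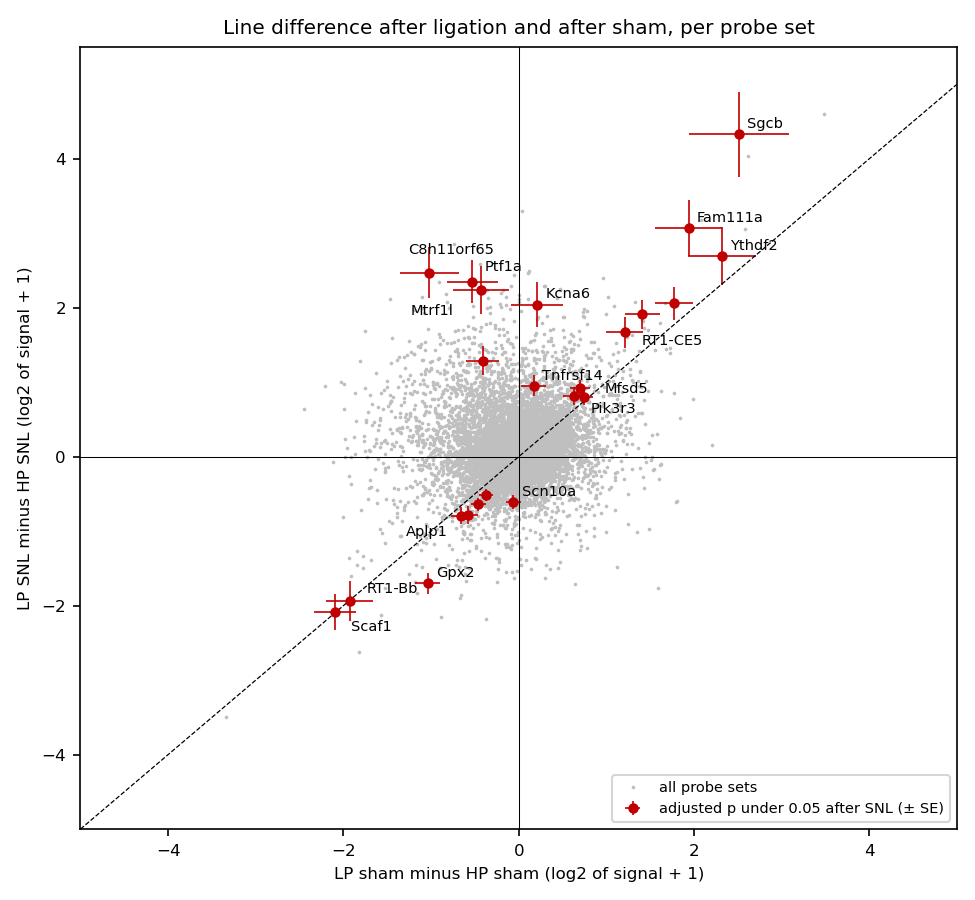
LP minus HP difference after SNL (vertical) against after sham (horizontal) on the scale of log2(signal + 1), 1 grey point per probe set, with the 23 probe sets past an adjusted p of 0.05 after SNL in red (bars ± SE) and the line of equal difference dashed. Scaf1 and RT1-Bb lie on the dashed line, whereas Scn10a, Kcna6, Tnfrsf14, Ptf1a, Mtrf1l and C8h11orf65 have sham differences between -1.02 and 0.21.

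Across all probe sets, the line difference after SNL had the same sign as that after sham in 59.8% of 15866. Of the 1684 at an unadjusted p under 0.05 after SNL, 74.8% kept the sign, and of the 23 called, 19 did (82.6%). The sham comparison used other arrays but shared the variance estimate. Among the 15 called higher in LP SNL, 11 had the same sign after sham, and among the 8 called lower, all 8 did. The genes without that sign were Ptf1a, Mtrf1l and C8h11orf65 and 1 unnamed probe set. Pearson's r between the line differences was 0.14 over all probe sets and 0.52 in the brighter 7933, a description across probe sets that share arrays within each difference. No probe set passed an adjusted p of 0.05 for the interaction by limma (0%), and 747 had an unadjusted p under 0.05 (4.71%), so no gene was shown to differ between lines after ligation only. The smallest interaction p belonged to C8h11orf65 and Ptf1a (3.48 ± 0.48 and 2.88 ± 0.42, limma adjusted p = 0.223 for both). Nat1, an arylamine acetyltransferase, had a dim probe set at 11.4 on all 3 HP SNL arrays and at 67.2, 47.7 and 52.6 in LP SNL (interaction 3.01 ± 0.49, limma adjusted p = 0.296), but its brighter probe set gave -0.00 ± 0.14 after SNL. Smad5, a transducer of bone morphogenetic protein signals, was alike: 1 dim probe set had an interaction of 2.15 ± 0.39 (limma adjusted p = 0.443), and the other 2 had SNL differences of 0.07 and -0.02.

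Immediate early genes, which neurons and glia induce within minutes of activity or stress, were grouped with chaperones. In 8 of 27 measured genes the LP SNL arrays were all above the HP SNL arrays, and in 0 below, where over all genes 9.10% were above and 8.33% below. None passed the threshold, and the counts were the same 8 and 0 after quantile normalization. The median was 0.19 after SNL (0.09 to 0.32 over the alternatives) and 0.09 after sham, where 2 were above and 3 below; over all genes after sham 8.19% were above and 7.40% below. The nuclear receptor gene Nr4a3 stood at 179.4, 183.7 and 189.4 against 271.9, 269.5 and 300.5 (0.60 ± 0.11, limma adjusted p = 0.0845). The phosphatase gene Dusp1 stood at 602.1, 723.7 and 703.1 against 987.2, 986.1 and 1152.3 (0.62 ± 0.16, limma adjusted p = 0.224). The activity markers Fos and Egr1 had wide spread in LP SNL, at means ± SD of 1464 ± 640 and 1457 ± 737 (n = 3) against 723 ± 109 and 866 ± 69.6 in HP SNL. The other 4 were Fosb, Nr4a2, Arc and Ier3, and Fosb was very dim.

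The serpin Serpina3n, a secreted inhibitor of serine proteases, stood at 659.9, 696.5 and 837.1 in HP SNL and 1753.8, 1967.4 and 1560.1 in LP SNL, a log2 difference of 1.27 ± 0.20 just outside the threshold (limma adjusted p = 0.0528) that passed in 9 of 24 alternatives (adjusted p from 0.0131 to 0.206). After sham the difference was 0.54, on signals of 173.1 to 243.3 in HP and 246.6 to 382.0 in LP, and the interaction was 0.73 (limma adjusted p = 0.984). Among 32 serpins and other protease inhibitors 2 were above (Serpina3n and Serpinb2) and 4 below, with a median of -0.09 and no gene past the threshold. Of all genes, 9.10% were above and 8.33% below. Cathepsins and granule proteases had 0 of 18 above and 2 below, Ctsf and Ctsz, with a median of -0.03. Elane, the neutrophil elastase gene, was not analysed here.

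Glial and stromal lists held no called gene, where 0.125% of all genes were called. Without overlap, 9.10% of all genes were above and 8.33% below. Satellite glia markers had 1 of 14 above and 6 below with a median of -0.17 (0.00 after sham), and 2 and 4 with -0.06 after quantile normalization. Sox10, the glial lineage factor, stood at 1661.1, 1380.6 and 1500.8 in HP SNL and 1195.0, 1048.6 and 1104.5 in LP SNL (-0.44 ± 0.10, limma adjusted p = 0.15; sham -0.40), whereas Fabp7, a lipid carrier of satellite glia, stood at 548.0, 467.3 and 584.2 against 698.2, 1136.3 and 876.4 (0.74 ± 0.19, limma adjusted p = 0.222; sham 0.79). Aldoc, Cadm1, S100b, Apoe and Gfap were the other 5 below. Summed over the list, signals were 39491 to 40456 in HP SNL and 34591 to 37250 in LP SNL, and the median brightness of the list was at the 89th percentile. Myelin genes had 0 of 12 either way (0.07), Schwann cell repair genes 3 of 17 above and 1 below (0.00), and central nervous system glia markers 2 of 10 above and 1 below (0.08). Endothelial and mural cell markers had 4 of 26 above and 1 below (0.09), fibroblast and matrix genes 8 of 56 above and 3 below (0.07), adipocyte markers 0 of 13 above and 3 below (-0.02), and skeletal muscle markers 3 of 37 above and 1 below (0.14). Red blood cell markers had 0 of 11 above and 3 below (-0.21, against 0.05 after sham and 0.09 after SNL without HP SNL replicate 2), which were Hba-a3, Hbb and Car2, and the list's summed signal was 19676 to 22202 in HP SNL, 15248 to 19338 in LP SNL and 13957 to 18749 over the sham arrays.

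Housekeeping lists lay slightly below 0 in LP, and so did bright genes in general. Of 56 respiratory chain genes, 1 was above and 16 below (median -0.12, sham -0.08), and of 40 cytosolic ribosomal protein genes, 1 was above and 9 below (-0.09, sham -0.10), with none past the threshold. Their median brightness was at the 93.9th and the 98.5th percentile. In the brightest 10% of all genes the median was -0.08, with 21.6% below and 4.71% above, and in the dimmest 25% it was 0.16, with 3.19% below and 10.8% above. After quantile normalization the brightest 10% had 12.4% below and 9.70% above, the respiratory chain counts were 2 above and 12 below (median -0.06), and the ribosomal counts were 3 and 2 (median 0.01). No direction therefore holds for the ribosomal list. Within it, Rpl37a lay apart at 0.95 ± 0.28 (limma adjusted p = 0.283). The respiratory gene with the smallest p, the complex I subunit Ndufs7, stood at 1777.9, 1489.8 and 1748.5 against 1176.3, 1201.1 and 1222.0 (-0.47 ± 0.11, limma adjusted p = 0.196; sham -0.36). Cell cycle genes had 2 of 32 each way (0.08), and cholesterol and fatty acid synthesis genes 1 of 31 above and 5 below (0.01).

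**Figure D5:**
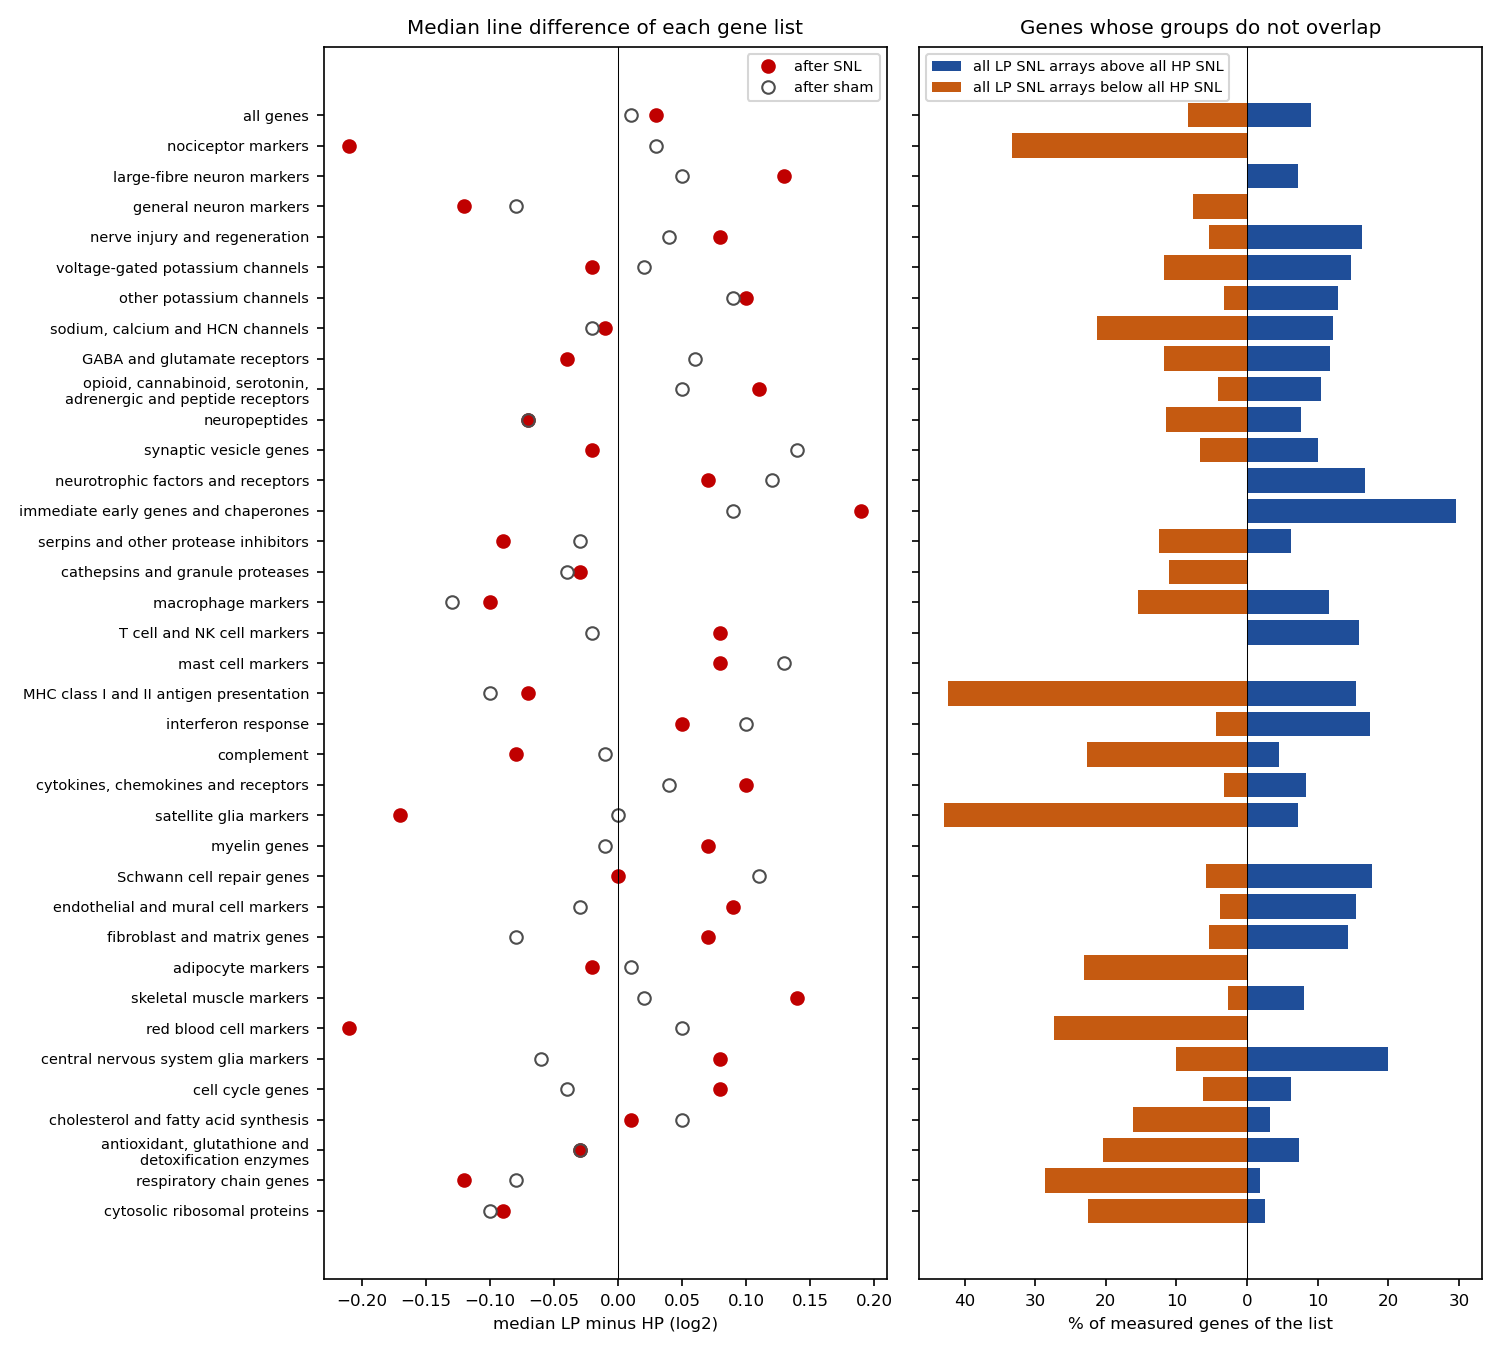
Left, the median LP minus HP difference (log2) of each gene list with at least 10 measured genes after SNL (filled) and after sham (open). Right, the percentage of a list's measured genes whose 3 LP SNL arrays all lie above (blue) or below (orange) the 3 HP SNL arrays. Nociceptor markers stand at 0 above and 8 of 24 below, and the list of immediate early genes and chaperones at 8 of 27 above and 0 below.

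Probe sets of the same gene agreed only in part. Of 1868 genes with at least 2 probe sets, the brightest and the next brightest had the same sign of the line difference after SNL in 57.4%, in 68.2% of the 192 whose brightest had an unadjusted p under 0.05, and in 14 of the 18 that were also at least 2-fold apart. Both probe sets were at such a p with the same sign for 23 genes and with opposite signs for 4. For 15 genes every probe set was at an unadjusted p under 0.05 in 1 direction, and none of these passed the adjusted threshold by limma. They included Cd55, which shields cells from complement (-0.59 ± 0.14 and -0.57 ± 0.17), Rgs4, a brake on G protein signalling (-0.47 ± 0.15 and -0.49 ± 0.17), the cannabinoid receptor gene Cnr1 (-0.67 ± 0.24 and -0.33 ± 0.13), the neuronal intermediate filament gene Ina (-0.52 ± 0.10 and -0.32 ± 0.13) and the lysosomal sulfatase gene Arsb (0.72 ± 0.19 and 0.51 ± 0.11). Of these, Cd55 and Rgs4 had sham differences of -0.02 and 0.06, and Arsb, Ina and Cnr1 had 0.96, -0.44 and -0.44.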

How the data were processed

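RNA of 12 dorsal root ganglion samples, 3 per group, was hybridised by the authors to 1-colour Affymetrix arrays. In the deposited table each array has a column of linear intensities, 1 for each probe set. The submitters' processing notes name RMA, without a version. On every array the 2% trimmed mean was 500.1, and values ran from 0 to 13930.7, so which summary and scaling gave them is not settled, and they were not normalized again. Files from the scanner were not used here.

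Of 15923 probe sets, 57 controls were left out. Gene names came from the platform table, updated through RefSeq (GRCr8): 12783 probe sets had 1 symbol, 312 several and 2771 none. The fit used limma 3.58.1 in R 4.3.3 on log2(intensity + 1), with 4 group means, all 12 arrays (8 residual degrees of freedom), eBayes, Benjamini-Hochberg adjustment over 15866 probe sets, two-sided, threshold 0.05. The fit was tested on simulated data with the measured spread of each probe set. It recovered 19.4% of 1.5-fold, 67.2% of 2-fold and 81.8% of 4-fold changes, with 2 false calls. A gene that did not pass is therefore not shown to be alike in the 2 lines. Alternatives changed 1 choice at a time, except that a variance trend and robust estimation were set together.

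The lists and comparisons were chosen with earlier results of these data known. Named genes were those past the threshold (up to 15 each way), genes whose probe sets all passed (up to 12), the 4 smallest p of each list, the 10 smallest interaction p, Serpina3n and Elane. No gene had several probe sets all past the adjusted threshold; those with all at an unadjusted p under 0.05, Fos, Egr1 and list members with groups that did not overlap were named after their values were seen. Promoters came from RefSeq, and motifs were searched on both strands.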

Additional observations from a re-analysis of the deposited data

Results flagged for a closer look

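For 5 named genes the LP arrays lay wholly on one side of the HP arrays after SNL and wholly on the other after sham. The test of that difference, limma's interaction, passed for none of them after adjustment. C8h11orf65, Cds2, Hba-a3 and Lad1 were among the genes named for the smallest interaction p, and Sv2b was named from its list. Selection by that p favours opposite splits, so the count of 5 is not a test. No share over all genes is given for this pattern. C8h11orf65 had an interaction of 3.48 ± 0.48 (limma adjusted p = 0.223), from 2.47 after SNL and -1.02 after sham. Cds2, which makes a precursor of membrane phosphoinositides, had -1.19 ± 0.24 (limma adjusted p = 0.552), with signals of 297.0, 290.6 and 259.0 in HP SNL against 166.6, 232.0 and 182.7 in LP SNL. Hba-a3, an alpha globin, had -0.82 ± 0.16 (limma adjusted p = 0.552), with 2487.0, 2961.9 and 3176.6 in HP SNL against 2291.9, 1993.5 and 2176.6 in LP SNL, and 1919.4, 1817.8 and 1649.1 in HP sham against 2412.2, 2451.0 and 2279.4 in LP sham. Lad1, a basement membrane anchor protein, had -1.23 ± 0.24 (limma adjusted p = 0.552) at signals under 100. Sv2b, a synaptic vesicle protein, had -0.49 ± 0.15 (limma adjusted p = 0.969), and its other probe sets had SNL differences of -0.16 and 1.15.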

How the results depend on the processing

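The count of 23 calls after SNL became 10 with the replicate block, 11 when each gene's probe sets were averaged, 38 without the dimmest 25%, 44 with a pseudocount of 32, 14 after quantile normalization, 68 with a trended and robust variance, 37 with array weights, 7 with only the 6 arrays compared and 14 with the actin ratio as a covariate. After sham, 7 calls became 0 with the replicate block, 1 with one probe set per gene, 0 with the mean of probe sets, 15 without the dimmest 25%, 1 after quantile normalization, 38 with the trended and robust variance, 0 with the 6 sham arrays alone and 15 with the actin covariate. The interaction had 0 calls, and 2 with the actin covariate. Leaving out 1 array gave 1 to 22 calls after SNL, 0 to 11 after sham and 0 to 3 for the interaction. With averaged probe sets RT1-Bb reversed to 0.62 and Sv2b, not called, to 0.24. Other genes that were not called also changed sign: Cd40 to -0.25, Cma1 to -0.08 and Pmp22 to 0.04 after quantile normalization, Cd40 to -0.24 without HP SNL replicate 1 (leave-one-out range -0.24 to 0.23) and Hpgds to -0.09 without HP SNL replicate 3 (range -0.09 to 0.33). Over the named genes, 3579 values kept direction and side of the threshold, 184 lost the threshold, 27 gained it and 7 reversed. Except where given, the cause was not tested. Same-numbered arrays had deviations correlated between -0.173 and 0.112 over 18 pairs, so the numbers were not taken as pairing the arrays. Dim probe sets limit precision.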

Other observations

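Further named genes, from the lists or the interaction, had these values. Shh, a morphogen, was listed with the Schwann cell repair genes and stood at 131.3, 49.7 and 45.0 in HP SNL and 257.0, 162.0 and 202.5 in LP SNL (1.60 ± 0.36, limma adjusted p = 0.162), while all 6 sham arrays lay between 14.4 and 24.9. Lipe, the hormone-sensitive lipase gene of the adipocyte list, stood at 295.2, 360.1 and 298.3 against 217.2, 155.0 and 127.8 (-0.96 ± 0.21, limma adjusted p = 0.152), with -0.14 after sham. Calb1, of the large-fibre list, read 67.7, 23.0 and 80.6 in HP SNL and 135.6, 124.2 and 135.3 in LP SNL (1.37 ± 0.54, limma adjusted p = 0.414), and had -1.19 after sham. Ttc38, a gene of unknown function, had dim signals of 24.3, 34.7 and 41.1 against 99.9, 105.6 and 63.0 (1.39 ± 0.23, limma adjusted p = 0.0611) and -0.27 after sham. None of these passed the threshold.

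HP SNL replicate 3 also stood apart from its partners for Ythdf2, at 283.0 beside 96.6 and 96.7, and without it the Ythdf2 difference was 3.21 ± 0.26. Sgcb did not pass without that array (4.37 ± 0.67, limma adjusted p = 0.0715).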
